A study of Mus musculus with 8 samples.

Results

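RNA-binding proteins of the hnRNP, SR, PRPF and RBM families and RNA helicases of the DEAD-box (Ddx) and DEAH-box (Dhx) families were followed as carriers of N6-methyladenosine (m6A) in their own transcripts. A gene was taken when its symbol began with Hnrnp, Srsf or Prpf, or with Rbm, Ddx or Dhx followed by a digit or an x, and when it had a listed m6A site in both control libraries. Rbm15 and Rbm15b were left out by the same rule. It gave 110 of the 8806 genes named in both control lists, with 19 Hnrnp, 10 Srsf, 11 Prpf, 28 Rbm, 28 Ddx and 14 Dhx genes. Another 12 genes of these families had a site in 1 control list and were left out.

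The measurements came from GLORI, in which a chemical treatment deaminates unmethylated adenosine so that it is sequenced as G, and m6A resists it and is sequenced as A. The level of a site was its A reads divided by its A and G reads. The mouse series holds 8 libraries in 4 groups of 2. TBLC grown in MYCP medium had been treated with siNC, a control siRNA, or with siVirma, an siRNA against Virma, and EPSC with a dCas13b-FTO targeting system carried the guide sgCtrl or sgGata6. Virma belongs to the m6A writer complex, which it scaffolds, and FTO is an m6A demethylase that dCas13b brings to the RNA a guide names. The labels do not say whether the replicates were separate cultures, so p-values measure the spread between these libraries only, and the EPSC values are pooled to 1 per group.

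These families act at most steps in the life of an RNA. hnRNP proteins coat nascent transcripts and often repress splice sites, SR proteins bind exons and favour their inclusion, and PRPF proteins are parts of the spliceosome. RBM proteins share RNA recognition motifs, and DEAD-box and DEAH-box helicases use ATP to remodel RNA and RNA-protein complexes in splicing, ribosome assembly, translation and decay. m6A is placed on mRNA by the METTL3-METTL14 writer complex, mostly in long internal exons and near stop codons.

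The TBLC lists held 61957 to 66350 called sites in siNC and 34739 to 41082 in siVirma, over 4367999 to 4764955 and 2655963 to 3423268 A and G reads. Virma itself had a deposited gene coverage of 40.3 and 38.2 (siNC) against 24.0 and 22.8 (siVirma). After subtraction of each library's median log2 coverage it was 0.531-fold of the control (limma adjusted p = 0.000403). Of 10 pluripotency markers, 9 had a site in all 4 lists, against 4 of 10 genes of the 2-cell program, where Tcstv1, Duxf3 and Gm4340 had none in any list. Of 10 primitive endoderm markers, 6 were in all 4 lists, and Foxa2 and Sox7 were in none. Of 10 fibroblast markers, which feeder cells would carry, 6 were in all 4 lists, with a summed coverage of 309 and 289 before and 552 and 445 after the knockdown. The part of this difference in the results was not tested. A gene is seen in these lists only through its m6A sites, so an absent marker may be expressed without m6A.

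In the control cells the m6A sites of Srsf and Hnrnp transcripts had lower median levels than those of other genes, with read depth not matched. The 110 genes held 630 sites called in both siNC lists, in 105 of the genes. The median level of these sites was 0.339 and 0.345 in the 2 libraries, against 0.412 and 0.410 over the 45713 shared sites of other genes. Srsf sites were lowest, at 0.245 and 0.238, and Hnrnp sites followed, at 0.276 and 0.267. Rbm (0.353 and 0.364) and Ddx (0.367 and 0.356) sites lay between, and their ranges over the libraries overlapped. Prpf (0.400 and 0.397) and Dhx (0.407 and 0.431) sites were near the level of other genes. Of the Srsf sites 61.4% were under 0.3, of the Hnrnp sites 57.0% and of the Dhx sites 33.3%.

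Read depth moved with these levels. The median Srsf site had 181 reads and the median Hnrnp site 157 in siNC replicate 1, against 45 in other genes. With at least 50 reads in both siNC libraries, the medians of the members were 0.285 and 0.273, and those of other genes 0.321 and 0.317. With at least 200 reads they were 0.263 and 0.256 against 0.269 and 0.264. The difference between these families and other genes was therefore smaller among deeply read sites. The order of the families moved too. With at least 50 reads Srsf had 0.231 and 0.213, and Rbm (0.264 and 0.240) lay below Hnrnp (0.270 and 0.264). With at least 200 reads Ddx (0.219 and 0.209, 18 sites) lay below Srsf (0.250 and 0.246), and Hnrnp (0.273 and 0.258) was near other genes.

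The sites stood in clusters. In the 52 member genes with at least 5 shared sites, the densest window of 500 nt held a median of 60% of the sites, and the same share was found over 3396 other genes. Among the genes named below for their retention, all shared sites of Dhx8 (7), Ddx47 (5), Ddx51 (5), Rbm22 (6) and Ddx3x (6) fell in 1 such window. In Srsf5 the densest window held 83.3% of the sites, in Prpf18 50% and in Rbm47 42.9%. The sites of Ddx17 listed in any TBLC library spread over 18338 nt and those of Dhx33 over 15598 nt, and in both genes a single shared site lay far upstream of the rest.

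The strongest sites, among those with at least 50 reads in every TBLC library, were nearly fully methylated. In Hnrnpa0, an hnRNP that binds AU-rich mRNA, the highest site of its family was at position 58275070 on chromosome 13 (minus strand, build mm39), with levels of 0.983 and 0.968. The highest Srsf site was in Srsf4 (position 131628802 on chromosome 4), with 0.975 and 0.983, and the highest Prpf site in Prpf38b (position 108810825 on chromosome 3), with 0.964 and 0.935. Rbm14 (position 4853594 on chromosome 19), Ddx6 (position 44548657 on chromosome 9) and Dhx33 (position 70877741 on chromosome 11) each held a site at 0.963 or more in both libraries. So the low family medians of Srsf and Hnrnp went with many weak sites beside single sites close to 1.

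After Virma knockdown the methylation of nearly every measurable member fell. The gene level was compared in 80 members over the sites called in all 4 lists with at least 20 reads in each, with reads summed per gene. By the quasi-likelihood test of edgeR (Benjamini-Hochberg adjusted over 5642 genes), 76 of the 80 fell and none rose, where 93.8% of all genes fell and 0.177% rose. None was higher at an unadjusted p under 0.05, and limma (76 lower, 0 higher) and DESeq2 (74 lower, 0 higher) also called no rise. In 77 of the 80 both siVirma levels lay below both siNC levels, as in 95.4% of all genes. These shares were near those of all genes. The members kept a median of 43.7% of their level (quartiles 38.0% and 53.0%), and all genes kept 44.9% (quartiles 38.3% and 53.5%). These shares hold only for sites still listed in both siVirma lists. Of the 630 shared member sites, 236 (37.5%, against 32.8% in other genes) were in neither siVirma list and did not enter them.

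**Figure D1:**
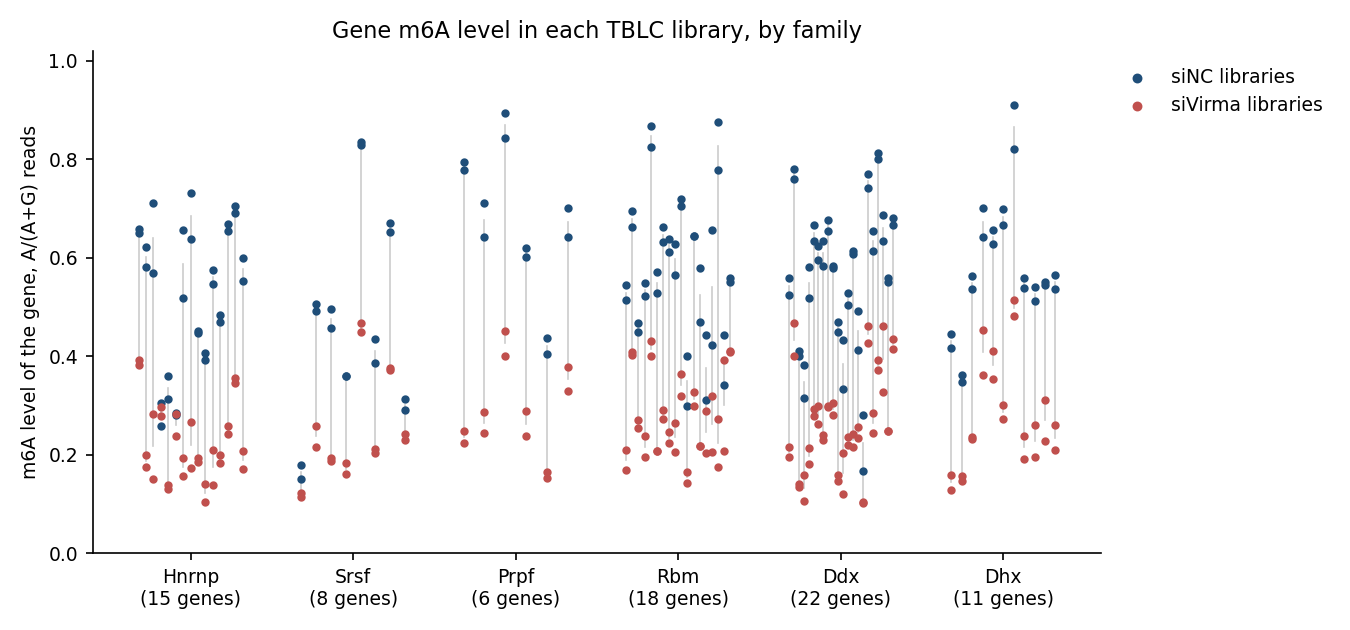
Gene m6A level (A reads over A and G reads, summed over the tested sites) of the 80 members with a test, by family. Each vertical line is 1 gene, with its 2 siNC libraries as blue points and its 2 siVirma libraries as red points; nearly all red points lie below the blue ones, and in Hnrnpa2b1, Hnrnpab and Rbmxl1 the groups overlap.

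The 4 members that did not pass were Hnrnpa2b1, Hnrnpab, Srsf1 and Rbmxl1. All tested Ddx (22 of 22), Dhx (11 of 11) and Prpf (6 of 6) genes fell, as did 17 of 18 Rbm, 13 of 15 Hnrnp and 7 of 8 Srsf genes. The median remaining level was 37.7% in Hnrnp and 52.8% in Srsf genes, the lowest and the highest of the families. With at least 50 reads Prpf was lowest (39.2%, Hnrnp 40.0%), and without siVirma replicate 1 too (39.2%, Hnrnp 44.0%). It was 41.1% in Prpf, 43.0% in Dhx, 44.4% in Ddx and 46.0% in Rbm genes. The family differences were not tested, since families share libraries and their genes are no replicates.

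The 6 genes with the most shared sites of each family show the range. Hnrnpa0 had levels of 0.657 and 0.650 in siNC and 0.382 and 0.392 in siVirma over 4678 to 7713 reads. Srsf6, an SR splicing factor, went from 0.652 and 0.669 to 0.375 and 0.372, and Prpf4, a component of the U4/U6 small nuclear ribonucleoprotein, from 0.619 and 0.602 to 0.288 and 0.238. In all 3 the groups were well apart. Rbm12, an RNA recognition motif protein, had 0.694 and 0.661 before and 0.408 and 0.402 after. Ddx17, a DEAD-box helicase of splicing and microRNA processing, had 0.411 and 0.401 before and 0.141 and 0.134 after, the lowest remaining share of the 6 (33.8%). Dhx33 went from 0.656 and 0.627 to 0.410 and 0.353. Each of these falls passed the edgeR test, with log2 changes in the odds of A to G reads from -2.12 ± 0.09 (SE, Prpf4) to -1.52 ± 0.15 (SE, Dhx33) and adjusted p of at most 4.31e-13.

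**Figure D2:**
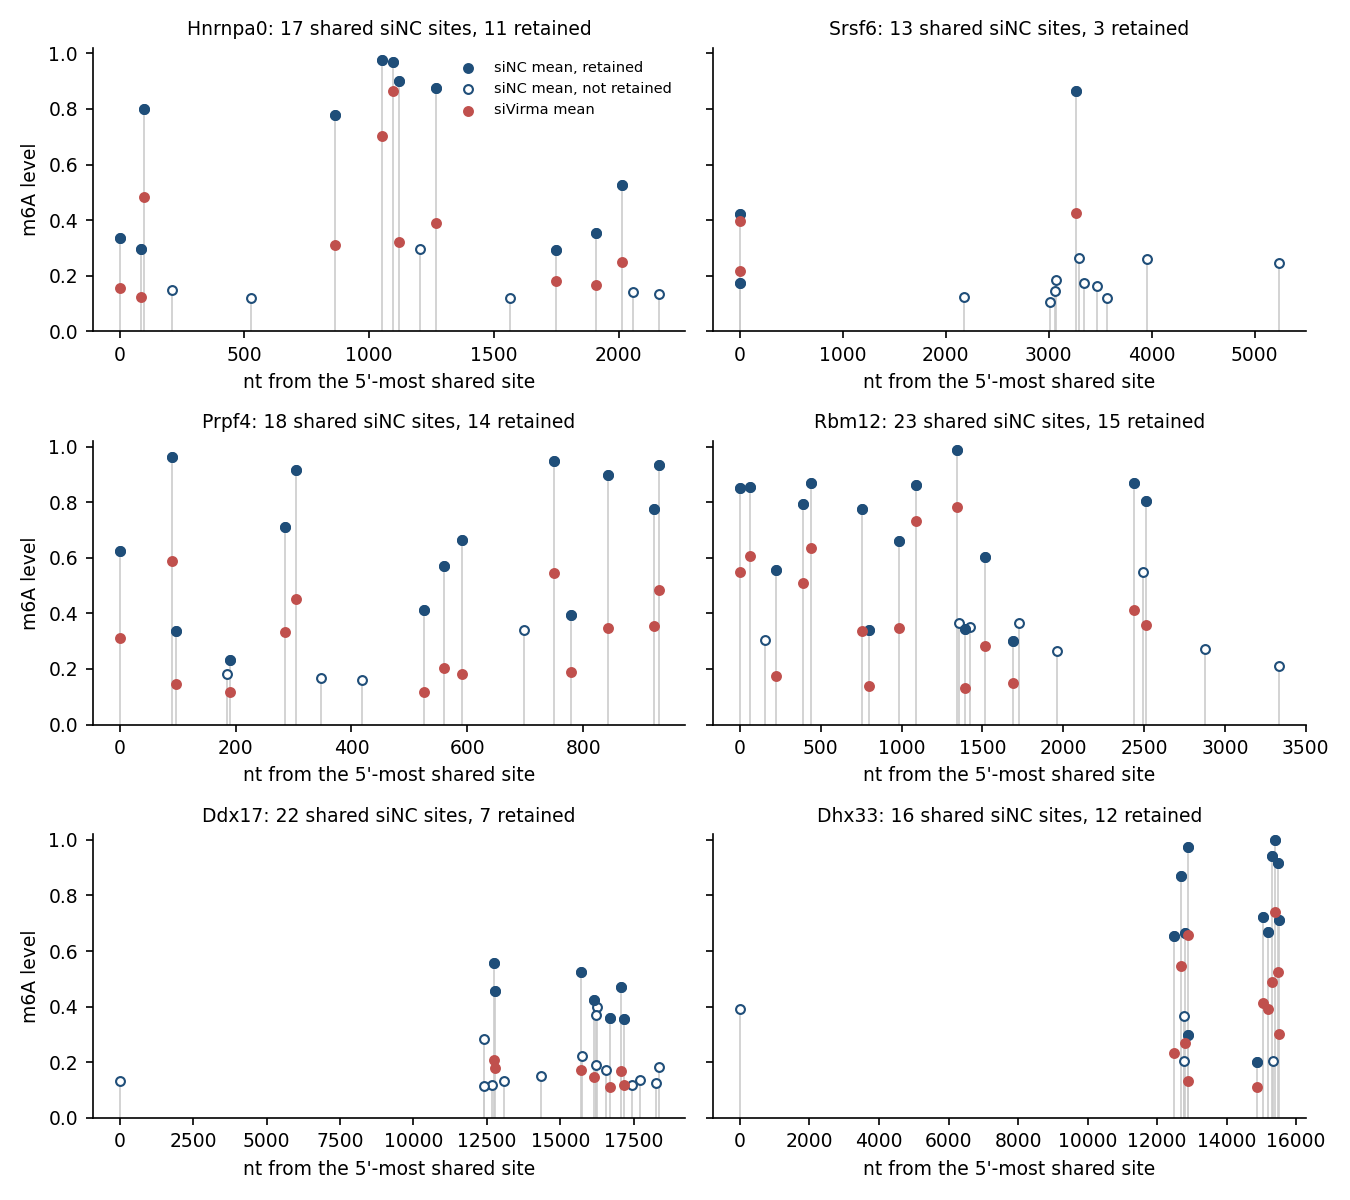
m6A level of each site shared by both siNC lists in the 6 genes with the most such sites, against the distance in nucleotides from the 5′-most shared site along the strand of the gene. Filled blue points are the siNC means of sites retained in both siVirma lists, open points those of sites not retained, and red points the siVirma means; the open points lie mostly under 0.4, and the first sites of Srsf6 have red points beside their blue ones.

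The largest falls among members with at least 100 reads in every library were ranked by the change in level, which favours genes that begin high. Hnrnpdl, an hnRNP D-like protein, went from 0.731 and 0.638 to 0.265 and 0.173. Prpf38b, a splicing factor, went from 0.893 and 0.844 to 0.401 and 0.450, and Rbm19, which acts in ribosome biogenesis, from 0.825 and 0.868 to 0.430 and 0.400. The levels of the groups did not overlap in any of them. Ddx54, a nucleolar helicase, went from 0.812 and 0.801 to 0.392 and 0.371, with 688 to 1020 reads per library. Hnrnpa1, a well known repressor of splice sites, went from 0.622 and 0.580 to 0.175 and 0.200 at 1 tested site. Reads of Hnrnpa1 can be shared with its copy Hnrnpa1l2-ps, which is a member too and fell from 0.711 and 0.568 to 0.151 and 0.283, so both are uncertain. The edgeR adjusted p of these 6 genes was at most 1.93e-07.

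At single sites the picture was the same, and the largest falls were steep. Of 282 member sites tested, 265 fell and none rose by edgeR, where 91.6% of all 20414 sites fell and 0.147% rose. The deepest falls were at Ddx24 position 103374451 (chromosome 12), from 0.915 and 0.880 to 0.312 and 0.251, and at Hnrnpa0 position 58275000, from 0.886 and 0.917 to 0.342 and 0.301. A second Ddx24 site, position 103383723, went from 0.750 and 0.812 to 0.196 and 0.250. On the same Hnrnpa0 transcript the site at 58275070 kept 0.706 and 0.698. The strongest sites of the other families, named above, all passed the test as lower and kept different levels. In siVirma they had 0.840 and 0.851 in Rbm14, 0.780 and 0.796 in Ddx6, 0.692 and 0.620 in Dhx33, 0.682 and 0.636 in Srsf4 and 0.459 and 0.462 in Prpf38b.

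Of the 17 tested member sites that did not pass, 10 lay at the 5′ end of the called sites of their genes. This was looked for after the values were seen, so it is given as a description with no test. Sites were ordered along the strand among all siNC sites of a gene with at least 3 of them, and those within 10 nt of the first were taken as its 5′ end. Of 40 tested member sites there, 30 passed the test as lower, and of the 237 other sites 231 did. In other genes 1158 of 1400 sites at the 5′ end and 16155 of 16897 elsewhere passed as lower. Sites that kept at least 90% of their level made up 20% of the 5′ end sites (8 of 40) and 0.844% of the others (2 of 237). Over other genes the same shares were 10.4% of 1400 and 1.16% of 16897, and they differed in the same direction. Of the 8 member sites 5 were Srsf sites, and without that family the share was 8.82% (3 of 34). By family, 2 of 3 Hnrnp, 3 of 3 Prpf, 10 of 12 Rbm, 8 of 9 Ddx and 7 of 7 Dhx sites at the 5′ end passed as lower. The median depth was 65 reads at the 5′ end and 72 elsewhere in siNC replicate 1. An mm39 annotation was not used here, so the distance of these sites to a transcription start was not measured.

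**Figure D3:**
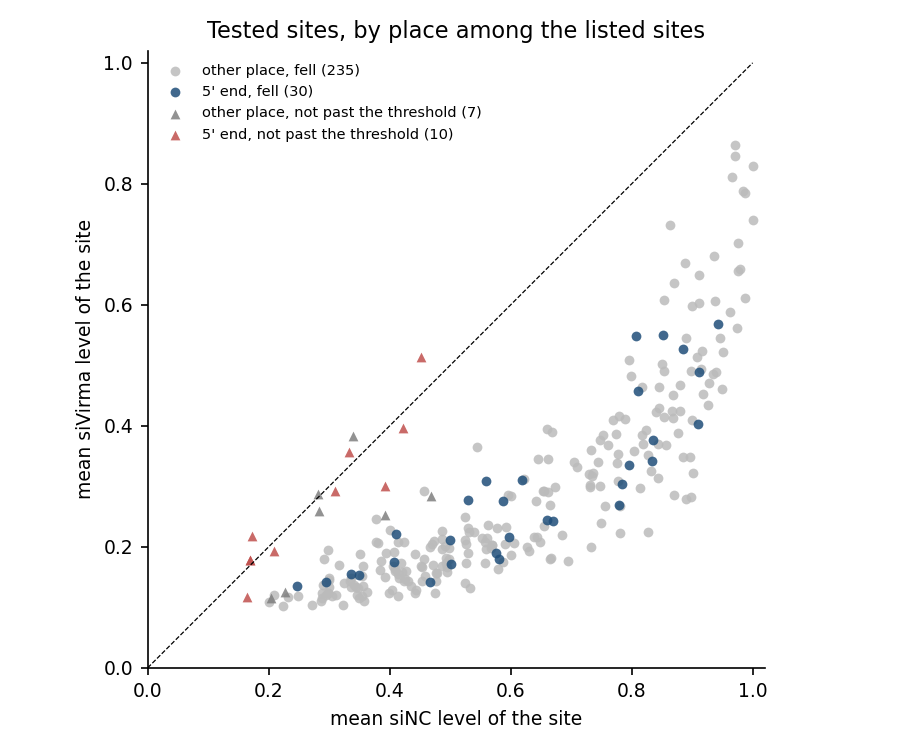
Mean siVirma level against mean siNC level of the 282 tested member sites. Triangles mark the 17 sites that did not pass the test and colours mark the 10 of them at the 5′ end of the listed sites; most triangles lie near the dashed line of equal levels, and the 30 other sites at the 5′ end lie among the rest. Sites of genes with fewer than 3 listed sites, such as Hnrnpab, are drawn with the other places.

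In the SR protein genes 8 shared siNC sites lay at the 5′ end, of which 6 were retained and tested, and 48 lay elsewhere, of which 16 were. All 16 of the tested sites elsewhere fell, and none of the 6 at the 5′ end passed the test. A site is tested only while it is listed in both siVirma lists, so a site that starts just above a level of 0.1 enters the test only if it falls little. In Srsf5 the first site (position 80992311 on chromosome 12, 503 to 686 reads) had 0.231 and 0.185 in siNC and 0.191 and 0.195 in siVirma. The other 4 tested Srsf5 sites together went from 0.557 and 0.525 to 0.210 and 0.221. The sites of this gene thus split into one whose groups overlapped and others that lost most of their level. In Srsf2 the first site (position 116743916 on chromosome 11) had 0.169 and 0.170 in siNC and 0.185 and 0.173 in siVirma, and the remaining tested sites fell from 0.509 and 0.467 to 0.146 and 0.189. In Srsf6 the 2 first sites, 3 nt apart, had 0.357 and 0.486 against 0.448 and 0.346 (position 162773448 on chromosome 2), and 0.174 and 0.170 against 0.185 and 0.250 (position 162773451). The strong Srsf6 site further 3′ fell from 0.856 and 0.877 to 0.429 and 0.419. Srsf7 had 0.313 and 0.304 at its first site (position 80514732 on chromosome 17) in siNC and 0.293 and 0.292 in siVirma. Without the sites at the 5′ end the median remaining level of the Srsf genes was 47.6% over 7 genes in place of 52.8% over 8. None of the tested Srsf sites taken out had passed as lower, so a lower Srsf median followed from that choice. Srsf1 (71.6%) also left with its only tested site. The median rose in Hnrnp (37.7% to 38.8%), Prpf (41.1% to 43.6%) and Rbm (46.0% to 46.3%). It fell slightly in Ddx (44.4% to 44.2%) and Dhx (43.0% to 42.8%), and that of all members was 43.0% in place of 43.7%.

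The highest remaining levels, among members with at least 100 reads in every library, were in Hnrnpa2b1, Hnrnpab, Srsf7, Rbmxl2 and Srsf1. Hnrnpa2b1, an hnRNP that has been studied as an m6A reader, had 0.305 and 0.258 in siNC and 0.278 and 0.296 in siVirma at 1 site (position 51446825 on chromosome 6) with 376 to 564 reads. Its groups overlapped, and its change was 0.02 ± 0.15 (log2 odds, SE) with an edgeR adjusted p of 0.90. This site was the second of its gene, 36 nt from the first. Hnrnpab, an A/B-type hnRNP, had 0.285 and 0.280 against 0.238 and 0.282 at its only listed site (position 51497674 on chromosome 11), with 571 to 661 reads a remaining level of 92.0% and an edgeR adjusted p of 0.197 (0.0494 without siVirma replicate 2). Srsf1, the founding SR protein, had 0.150 and 0.179 against 0.122 and 0.113 at its first site (edgeR adjusted p = 0.097, and 0.0408 with limma on logit levels).

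Srsf7 and Rbmxl2 passed the test with small falls. Srsf7 went from 0.291 and 0.312 to 0.230 and 0.242 (log2 change -0.49 ± 0.21 SE, edgeR adjusted p = 0.0305). That call was lost with DESeq2 (0.168), without siNC replicate 2 (0.142) and without siVirma replicate 1 (0.144). Rbmxl2, a retrogene of the Rbmx family, went from 0.550 and 0.559 to 0.410 and 0.407 (edgeR adjusted p = 0.000102). With at least 50 reads in each library only its first site was left, at position 106808652 on chromosome 7, where 0.395 and 0.271 stood against 0.386 and 0.328 (edgeR adjusted p = 0.816). Rbmxl1, which had 0.442 and 0.341 against 0.392 and 0.208 (edgeR adjusted p = 0.159), and Rbmxl2 resemble Rbmx closely, so their reads may come from other copies. The same holds for Ddx3x and Ddx3y, Ddx19a and Ddx19b, Rbm4b and Rbm12b2.

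Of the other sites that missed the threshold, Hnrnpu had 0.141 and 0.197 against 0.171 and 0.185 at its first site. Hnrnpf had 0.324 and 0.355 against 0.405 and 0.361 at a site 10210 nt from its first. The first site of Ddx5, a helicase of splicing and transcription, had 0.649 and 0.255 against 0.567 and 0.462, so its siNC replicates were far apart. Without siNC replicate 1 it was the single member site called higher (edgeR adjusted p = 0.0067), and with all 4 libraries its adjusted p was 0.513. These 3 were chosen after their values were seen. None of the 17 sites that missed the threshold had a row among the EPSC values used here. Of all shared member sites in genes with at least 3 listed sites, 32.3% of the 65 at the 5′ end and 43.5% of the 547 others had one.

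Whether a site was still called after the knockdown followed its starting level. Of the 630 shared member sites, 303 were called in both siVirma lists, 48.1% (95% Wilson interval 44.2% to 52.0%, counting error only), and 236 in neither. Single libraries gave 56.3% and 54.3%, and over other genes 47.4% were retained. Dhx sites were retained at 56.0% and Ddx sites at 52.2%, Rbm at 46.3%, Hnrnp at 45.3%, Prpf at 42.6% and Srsf at 38.6%. The intervals of the highest and lowest family, 45.3% to 66.1% and 27.1% to 51.6%, overlapped. With at least 50 reads in both siNC libraries the order of the families was different. Prpf then had 51.9% (27 sites), Ddx 51.2%, Dhx 48.6% (37 sites), Hnrnp 48.5%, Rbm 41.4% and Srsf 37.3%. A list entry needs at least 15 reads, 5 A reads and a level of 0.1, so a site that is not listed may have fallen below any of these.

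Within each range of siNC level a larger share of member sites than of other sites was retained. Between 0.1 and 0.3 it was 10.1% of 277 member sites against 7.21% elsewhere, and between 0.3 and 0.5 it was 60.9% of 151 against 42.2%. Between 0.5 and 0.7 it was 82.7% against 75.8%, and above 0.9 it was 97.1% against 94.0%. Depth differed in the same direction, with 90 median reads against 60 in the lowest range. With at least 50 reads in both siNC libraries the shares were 11.3% against 7.21%, 76.3% against 67.8%, and 100% against 98.3% in the first 3 ranges. The distance shrank between 0.3 and 0.5 and between 0.5 and 0.7, but not between 0.1 and 0.3. In that lowest range the member sites still had more reads, a median of 115 against 95 in siNC replicate 1. The remaining differences were not tested. Among sites under 0.3, retention was 25.9% at the 5′ end (7 of 27) and 7.95% elsewhere (19 of 239) in the members, and 12.6% and 6.23% in other genes. Without the Srsf genes it was 13.6% (3 of 22) at the 5′ end and 8.57% elsewhere in the members.

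**Figure D4:**
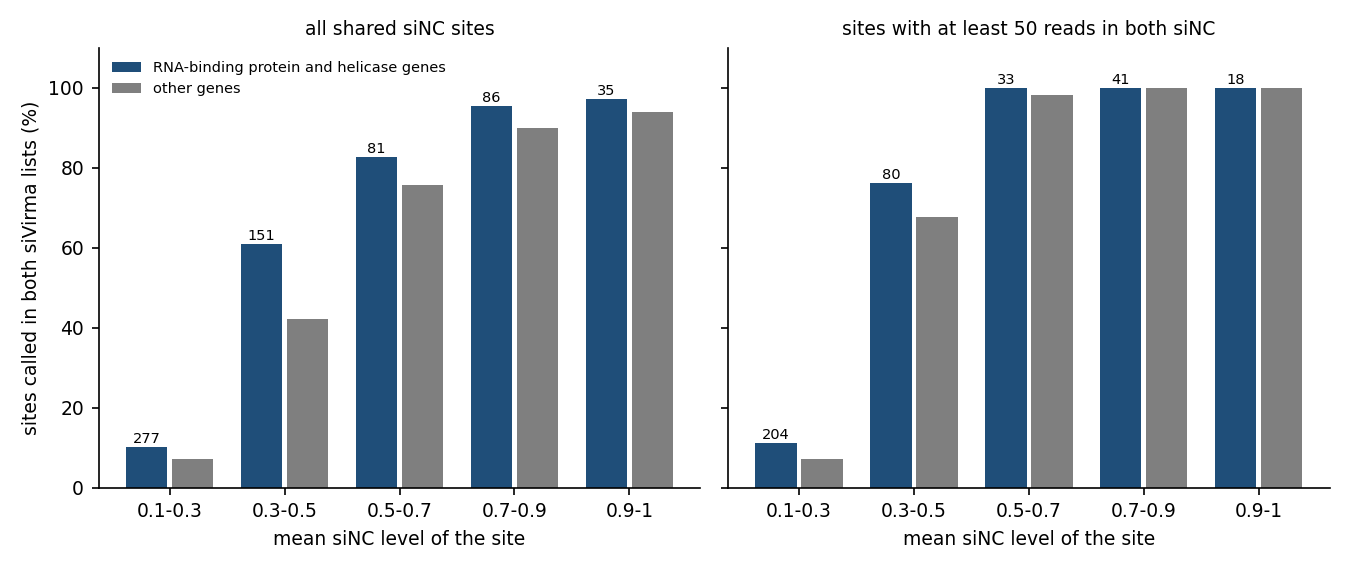
Share of shared siNC sites that were also called in both siVirma lists, in ranges of the mean siNC level, for member genes (blue, with the number of sites above the bar) and other genes (grey). The left panel holds all sites and the right panel those with at least 50 reads in both siNC libraries; shares rise with the level in both gene sets, from 10.1% to 97.1% in the members on the left.

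Among genes with at least 5 shared sites, Dhx8, a helicase that releases mRNA from the spliceosome, kept 6 of 7 sites. Srsf5 kept 5 of 6, and Ddx47 and Ddx51, both of ribosome assembly, kept 4 of 5 each. Each of them lost its weakest site, or in Ddx51 the next to it, with siNC means from 0.103 (Dhx8) to 0.263 (Ddx51). At the other end Rbm22, a spliceosome component, kept none of 6 sites, all of which were at 0.251 or less. Ddx3x, a helicase of translation initiation, kept 1 of 6, at its strongest site (0.459). Prpf18, which acts in the second step of splicing, kept 2 of 12 and Rbm47 kept 1 of 7, and their lost sites reached 0.583 and 0.528. Both genes had low siNC coverage, 36.1 and 34.4 in Prpf18 and 24.2 and 23.5 in Rbm47, against 222 and 214 in Ddx3x. No site of Rbm47 entered the gene test. Whether their sites left the lists through fewer reads or a lower level was not tested.

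In 15 members no site was listed in either siVirma list. Among them were Hnrnpk, Hnrnph1, Srsf3, Srsf9, Prpf19 and Rbm3, here named after their values were seen. Of these 15, 12 had a shared siNC site, and in 10 of the 12 the strongest was under 0.3. Prpf6 was apart, with a single site at 0.722. Hnrnph1 and Srsf3 had siNC coverages of 212 and 213, and 310 and 317, so these were well covered transcripts with weak sites. Of the 110 members, 93 had a site in siVirma replicate 1, 90 in replicate 2 and 88 in both, 85 kept a shared site, and 30 could not enter the gene test. In both siVirma lists and neither siNC list stood 14 further sites of members, beside their 630 shared siNC sites. In other genes 1582 such sites stood beside 45713 shared siNC sites.

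Gene coverage, a deposited signal per gene, changed little in these genes. It was compared with limma in the 88 members with a site in all 4 lists, after subtraction of the median shift between the libraries (siVirma higher by 0.17, log2). It was lower in 9 and higher in 4 at an adjusted p under 0.05, where 12.4% and 9.15% of all 6787 genes were. Centred on the median ratio of all genes it was lower in 3 and higher in 6, so the balance of directions rests on the centring. Without centring it was lower in none and higher in 3, and without siVirma replicate 1 no member passed. In bulk RNA, fewer cells of a type and less RNA per cell cannot be told apart.

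Among those that passed, the largest fall was in Prpf4, whose siNC coverage of 60.1 and 57.3 stood against 56.2 and 48.7 in siVirma, 0.795-fold after centring (limma adjusted p = 0.00601, and 0.0666 without siVirma replicate 1). Rbmxl2 had 0.845-fold, Dhx29, a helicase of translation initiation, 0.858-fold, and the splicing regulator Hnrnpl 0.872-fold of the control coverage after centring. The other 5 that passed as lower were Ddx3x, Ddx52, Rbm18, Rbm27 and Rbm39, named after their values were seen, and none of these 5 passed with the other centring, nor did Hnrnpl (limma adjusted p = 0.0755). The rises were in Ddx20, a helicase of the SMN complex, from 65.2 and 63.0 to 95.2 and 78.0 (1.20-fold after centring, limma adjusted p = 0.0155), in Rbm7, a subunit of the nuclear exosome targeting complex (1.17-fold), in Dhx30 (1.16-fold) and in Ddx24 (1.14-fold). Without siNC replicate 2, 2 members passed as lower, Prpf4 among them, and none as higher. m6A fell in all 4 genes with a rise and in Prpf4 alike, from 0.667 and 0.634 to 0.279 and 0.292 in Ddx20.

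The deposited conversion rate per gene moved with the groups too. Its median over the 88 members was 0.985 in both siNC libraries and 0.989 and 0.990 in siVirma, and it was higher in both siVirma libraries in 85 of them, 96.6%, as in 95.8% of all genes. Unconverted unmethylated A would count as m6A. Its part in the fall was not tested.

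Splicing factors, RNA-binding proteins and helicases outside these families were set beside them. Of a list of 80 such genes, 73 were in both siNC lists and 55 were tested, of which 53 fell and none rose, a share near the 93.8% of all genes. The stress granule proteins G3bp1 and G3bp2 went from 0.717 and 0.707 to 0.294 and 0.284, and from 0.569 and 0.566 to 0.192 and 0.184.

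In EPSC the guide against Gata6 left no changed member site at the main threshold. Of the EPSC rows, 289 matched a listed TBLC site of 80 members, and 187 sites in 58 genes had at least 20 reads in both pooled groups. Their pooled level was 0.322 with sgCtrl and 0.332 with sgGata6, with 74 sites lower and 112 higher, where over all sites 5408 were lower and 4714 higher. By Fisher's exact test on the pooled reads, a comparison of pooled libraries rather than of conditions, none passed an adjusted p of 0.05, where 0.275% of all 10185 sites did, and 17 of the 187 had an unadjusted p under 0.05, as did 1197 of all 10185. The smallest adjusted p was 0.0685, at Ddx17 position 79412067 (chromosome 15), where 16 of 129 reads were A with sgCtrl and 41 of 131 with sgGata6. With at least 50 reads in both groups fewer sites were tested, and this one passed (adjusted p = 0.0210 by Fisher's exact test).

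The gene with the most such EPSC sites in each family is given with both guides. Hnrnpa0 had a pooled level of 0.537 with sgCtrl (Wilson interval 0.507 to 0.567) and 0.504 with sgGata6 (0.469 to 0.538), over 1055 and 810 reads. Ddx6, a helicase of mRNA storage and decay, had 0.440 and 0.426, Dhx30 0.363 and 0.351 and Rbm38 0.397 and 0.428. Their intervals overlapped in each case. Srsf11 had 0.236 (0.192 to 0.287) and 0.293 (0.251 to 0.339), and Prpf4 had 0.417 and 0.506 over only 72 and 77 reads.

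Levels at the sites seen in both cell types followed each other, with mostly lower values in EPSC. At 180 member sites in 57 genes with at least 20 reads in each, the median level was 0.337 and 0.332 in TBLC siNC and 0.252 in EPSC sgCtrl. The median difference was -0.0584, and 136 sites were lower and 44 higher in EPSC (75.6% lower), against -0.0421 and 68.2% lower over 7983 sites of all genes. Pearson's r over the 180 sites was 0.915 and over all sites 0.919, given as a description, since sites share libraries. The TBLC sites had to be called and the EPSC rows had to pass in at least 1 EPSC group, and the tables were made apart. The widest gaps, chosen after their values were seen, were in Ddx6, at position 44547880, with 0.610 and 0.650 in siNC and 7 of 48 reads (0.146) in EPSC sgCtrl, and at position 44548605, with 0.619 and 0.571 against 6 of 32 (0.188). In the other direction Hnrnpf at position 117901068 (chromosome 6) had 0.429 and 0.477 in TBLC and 36 of 54 (0.667) in EPSC.

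**Figure D5:**
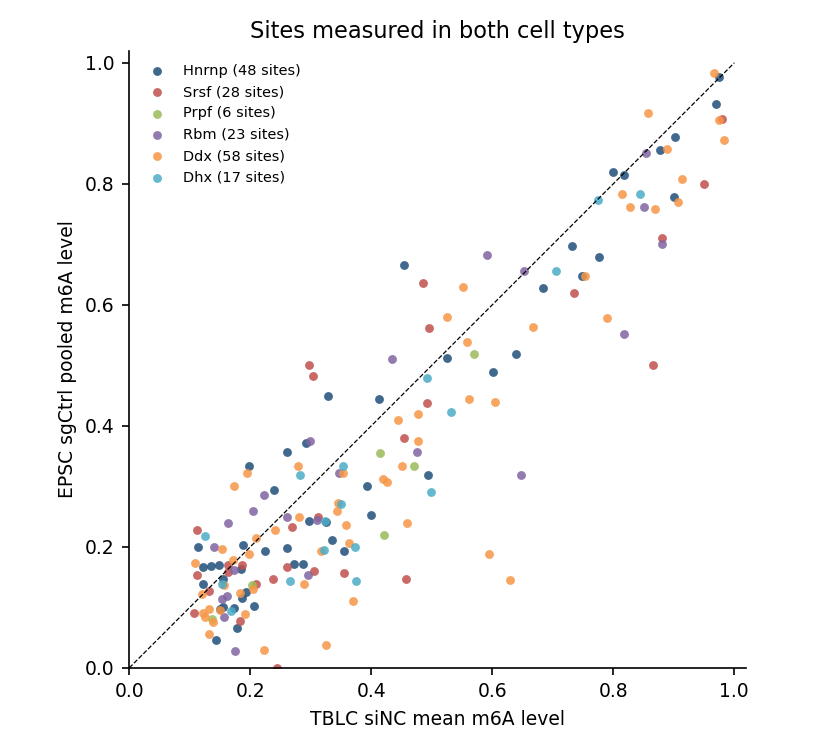
m6A level in EPSC sgCtrl (pooled libraries, vertical axis) against the mean TBLC siNC level (horizontal axis) at the 180 member sites with at least 20 reads in each, coloured by family. The dashed line marks equal levels; 136 points lie below it.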

How the data were processed

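GLORI libraries were made from mRNA, as the labels' protocols state. Coordinates are of the build mm39, named in the submitters' processing notes. Aligner and site caller: not given in the sources used here. The authors deposited for every TBLC library a list with counts of A and of A+G reads per site and the level as a fraction, per the file headers. The deposited p-value of each site was used only as a stricter filter. The deposited gene coverage is a signal and the conversion rate a fraction, and their computation is not described in the labels. From the values, a listed site has 15 or more A+G reads, 5 or more A reads and a level from 0.1. The deposited EPSC table gives A read counts and A+G coverage pooled per group, so Fisher's exact test was used there, and EPSC rows took their gene from the same chromosome, position and strand in the TBLC lists.

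Groups came from the sample titles. Gene and site changes were tested with edgeR 4.0.16 (quasi-likelihood, a term per library and a group effect on the A reads), at an adjusted p of 0.05 over all genes or sites, and coverage with limma 3.58.1. DESeq2 1.42.0, limma on logit levels, other read minimums, other centring, a replicate block and each library left out were tried. The scripts were tested on simulated data. Summaries used Python 3.11.15, pandas 2.3.3 and scipy 1.17.1. The smallest two-sided exact permutation p for 2 against 2 libraries is 0.333, so no such test was run. Wilson intervals reflect only counting error, as PCR reads that carry no molecular identifiers are not independent.

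The members and lists were chosen with earlier results of these data known. Named genes were, per family, the gene with the most shared sites, the highest site (minimum 50 reads per library) and the gene with the most EPSC sites; the 5 largest falls and 5 highest remaining levels with at least 100 reads in every library; the 4 largest coverage changes each way among those past the threshold; the 4 highest and 4 lowest retentions with at least 5 shared sites; the 3 sites with the largest and the 3 with the least fall, under the same minimum; and the 2 related genes with the lowest p. Exceptions are stated, and a related gene is not reported here. The planned comparison of sequence around the sites was not made, since no genome or annotation of mm39 was used here.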

Additional observations from a re-analysis of the deposited data

How the results depend on the processing

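Between libraries with the same replicate number, the deviations of the log2 odds per site had a correlation of 0.00844. Pairing of the libraries in gene coverage was not tested. With a replicate block 76 genes and 265 sites fell, as without it. In coverage 16 members were lower and 6 higher with the block, against 9 and 4 without it. Over all genes coverage was lower in 1306 and higher in 832 with the block, against 841 and 621 without it. The count of lower sites was 163 of 172 with at least 50 reads, and leaving out 1 library gave 0 to 1 site higher. Coverage was lower in 9 members, but in 0 without centring, in 3 centred on the median ratio and in 0 to 7 with 1 library left out, and higher in 0 to 3 with 1 left out. Retention ranged from 41.5% to 56.3% with 1 library left out. The remaining level was 43.4% with at least 50 reads, 43.9% with no minimum, 43.0% without the 5′ end sites, and 43.9% to 44.9% with 1 library left out. The median siNC level was 0.279 with at least 50 reads, 0.279 with at least 100, 0.259 with at least 200, and 0.313 to 0.316 in a single library. With at least 50 reads 1 EPSC site passed, and the EPSC minus TBLC difference was -0.0364. The log2 change of Hnrnpa2b1 ranged from -0.13 (siNC replicate 2 left out) to 0.207 (siNC replicate 1 left out). That of Rbmxl2 was 0.0892 with at least 50 reads, and that of its first site ranged from -0.22 (siNC replicate 2 left out) to 0.586 (siNC replicate 1 left out). Of the 76 genes that fell, Rbm4b, Srsf7, Ddx41 and Ddx55 lost the call without siVirma replicate 1, Rbm4b and Srsf7 with DESeq2 and without siNC replicate 2, Rbm4b with limma, Ddx50 without siNC replicate 1 and Rbmxl2 with at least 50 reads. Among tested 5′ end sites 22.4% to 40.9% did not pass under the alternatives, and 0.685% to 16.4% of the others. The cause of these shifts was not tested, except that fewer reads or libraries leave fewer sites. Alternatives at 100 reads, at 200 reads, on the median ratio and on the 5′ end were chosen after seeing the data.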
